A study of Homo sapiens with 12 samples.

Results

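The 9 classical cyclin genes of the mitotic cell cycle, the D-type CCND1, CCND2 and CCND3, the E-type CCNE1 and CCNE2, the A- and B-type CCNA2, CCNB1 and CCNB2, and CCNF, were followed through 12 poly(A) RNA-seq libraries of HEK293T cells. The genes were chosen by name and not by any measured value, though with earlier results of these data known. They are 9 of the 58735 genes in the deposited count table. HEK293T is an established line of human embryonic kidney origin that carries adenoviral E1A and the SV40 large T antigen, both of which bind the retinoblastoma family of proteins. Cells of the wild-type line were given DMSO vehicle, a clickable electrophilic purine (CEP, the cysteine-reactive compound AHL-Pu-1) for 1 h, the photoreactive nucleoside 4-thiouridine (4SU) for 16 h at 100 µM, or 4SU and then CEP, with 3 libraries in each of the 4 groups. The CEP dose was 25 µM in the design text, while the treatment protocol in the labels writes the same figure in mM. In that protocol cells were washed, crosslinked with ultraviolet light on ice after 4SU, and then given CEP in serum-free medium. The protocol has the same wording for all 12 libraries, so whether DMSO and CEP cells were irradiated, and whether DMSO and 4SU cells were kept in serum-free medium, was not stated in the sources used here. The design text calls the replicates independent without naming separate cultures, and p-values measure the spread between these libraries.

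Cyclins are the regulatory subunits of cyclin-dependent kinases (CDKs), and their periodic synthesis and destruction orders the phases of the cell cycle. D-type cyclins pair with CDK4 and CDK6, respond to growth factor signals and start the phosphorylation of the retinoblastoma protein RB1. E-type cyclins then activate CDK2 at the entry into S phase under control of E2F factors, cyclin A acts with CDK2 and CDK1 through S and G2 phase, B-type cyclins drive mitosis with CDK1, and cyclin F is the substrate receptor of a ubiquitin ligase that needs no CDK partner. In E1A- and large T-expressing cells the RB1 step that D-type cyclins control is bypassed in part. Because whole cultures were measured, a smaller share of cells in a phase and less cyclin RNA per cell cannot be told apart.

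Genes of the G2 and M phases are known to carry CCAAT boxes, bound by NF-Y, and cell cycle genes homology regions (CHR), bound by MuvB complexes, and the promoters of CCNA2, CCNB1, CCNB2 and CCNF are printed here because the 4 genes peak in those phases and their windows differ in these letters. Each sequence holds the 250 bases upstream of the RefSeq start on the gene's own strand in build GRCh38.p14, namely chr4:121823884-121824133 (minus strand), chr5:69166900-69167149, chr15:59104896-59105145 and chr16:2429197-2429446 (plus strand). The gene models of GENCODE 29 begin inside these windows. Capitals mark CCAAT on either strand (ATTGG is the same letters on the other strand) and the CHR letters, either TTTGAA or, as a variant of that element, TTCGAA, in the sequences of the 4 genes.
CCNA2: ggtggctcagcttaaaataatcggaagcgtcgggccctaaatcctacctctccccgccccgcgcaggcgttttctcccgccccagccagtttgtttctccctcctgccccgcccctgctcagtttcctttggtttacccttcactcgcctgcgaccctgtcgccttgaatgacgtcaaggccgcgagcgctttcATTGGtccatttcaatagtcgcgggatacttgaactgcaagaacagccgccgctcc
CCNB1: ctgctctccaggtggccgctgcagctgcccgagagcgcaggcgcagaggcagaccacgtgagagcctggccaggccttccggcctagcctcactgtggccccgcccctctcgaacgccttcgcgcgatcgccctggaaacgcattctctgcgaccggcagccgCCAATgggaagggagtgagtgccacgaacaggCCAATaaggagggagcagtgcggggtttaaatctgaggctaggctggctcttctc
CCNB2: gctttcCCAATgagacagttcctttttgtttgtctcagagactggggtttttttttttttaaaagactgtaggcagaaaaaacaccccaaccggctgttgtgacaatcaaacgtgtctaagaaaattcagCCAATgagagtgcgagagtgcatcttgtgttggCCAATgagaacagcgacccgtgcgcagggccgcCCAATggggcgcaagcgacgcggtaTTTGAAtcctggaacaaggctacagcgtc
CCNF: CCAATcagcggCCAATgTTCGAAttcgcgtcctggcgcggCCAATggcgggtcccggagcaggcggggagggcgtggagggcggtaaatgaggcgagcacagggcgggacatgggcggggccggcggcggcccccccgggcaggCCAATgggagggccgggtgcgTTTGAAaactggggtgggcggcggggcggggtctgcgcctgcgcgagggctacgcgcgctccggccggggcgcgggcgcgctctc

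The CCNB2 window held 4 CCAAT boxes, at -244, -120, -87 and -54 from the start, and 1 CHR match at -29. In the CCNF window 4 CCAAT boxes stood at -250, -239, -210 and -106, with CHR matches at -233 and -85. CCNB1 had 2 CCAAT boxes, at -87 and -55, and CCNA2 had 1, at -56 on the opposite strand. Neither window held TTTGAA or TTCGAA, and other forms of the CHR element were not searched, so its absence is not shown. None of the 4 windows held the letters TTCCCGC on either strand, one form of an E2F element, nor its other form TTGGCGC. Of the other members, CCNE1 had none of these letters, and 2 of the 3 CCND3 promoters had 1 CCAAT each. Among 35116 RefSeq promoter windows of the same length, 32% held at least 1 CCAAT, 9.53% at least 2, 14.3% a CHR match, 5.05% both, and 7.81% the E2F letters. These matches are descriptions of the windows and not shown sites of binding. The promoters of CCND1, CCND2 and CCNE2 were not used here.

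The libraries held between 16569114 and 24644734 counts on genes, and the common biological coefficient of variation between replicates was 0.114. All 9 cyclin genes passed the filter on low counts, as did 17729 genes in all. Mitochondrial genes took 0.967% to 1.65% of the counts. CEP replicate 2 and CEP+4SU replicate 2 had 22230 and 22627 genes with a count, against 24376 or more in each of the others. The line's marker genes NEFL, NEFM, PAX2, WT1, KRT8, KRT18 and VIM were all present, with means of 1.17 to 45.9 FPKM (fragments scaled to gene length and library size). Of the markers of melanoma, the cell type of another line of the study, TYR was at 0 in every library. SOX10 reached at most 0.126 FPKM, while MITF averaged 2.89 and PMEL 1.97. CD3E and HBB, of blood cells, were at 0 in every library, and ALB, of hepatocytes, reached at most 0.0781 FPKM.

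All 9 cyclins were transcribed in HEK293T cells, and on the length-adjusted FPKM scale CCNB1, CCNA2 and CCNB2 stood above the other members. CCNB1, the main mitotic cyclin, averaged 98.1 ± 6.59 FPKM (SD, n = 12), a level above that of 98% of the genes tested. CCNA2, the cyclin of S and G2 phase, averaged 69.2 ± 3.89 FPKM, and CCNB2, the second B-type cyclin, averaged 29.4 ± 2.19 FPKM. Each of these stood above the next gene in the order in 12 of 12 libraries.

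A middle group followed with levels that ran into each other. CCND1 averaged 15.7 ± 1.96 FPKM, CCNF 14.9 ± 1.14, CCNE1 13.3 ± 1.51 and CCND3 12.6 ± 1.01 (SD, n = 12). Neighbours in this group were not apart in every library, since CCND1 exceeded CCNF in 7 of 12 libraries, CCNF exceeded CCNE1 in 9, and CCNE1 exceeded CCND3 in 7. CCNE2, at 4.67 ± 0.468 FPKM, and CCND2, at 4.52 ± 0.614, were the lowest members, and CCNE2 exceeded CCND2 in 8 of 12 libraries. Both still stood above more than 53% of the genes tested (54.4% and 53.8%). The order of all 9 was the same when CPM (counts scaled to the TMM library size) were divided by gene length in place of the deposited FPKM.

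**Figure D1:**
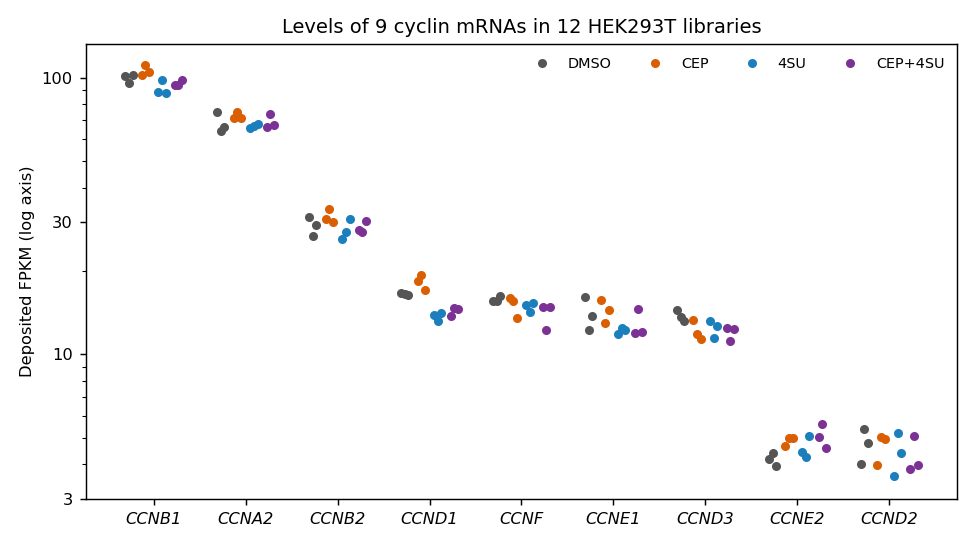
Level of each cyclin mRNA (deposited FPKM, log axis) in 12 libraries, 1 point a library, coloured by group and ordered by mean. CCNB1 (88.3 to 111 FPKM) and CCNA2 (63.9 to 75.2) stand apart at the top, CCND1, CCNF, CCNE1 and CCND3 overlap between 11.2 and 19.3, and CCNE2 and CCND2 share the lowest levels.

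CCND1, which encodes cyclin D1 and links growth factor signals to CDK4 and CDK6, was the member with a difference past the threshold. The gene lies on the plus strand at chr11:69641087-69654474 (GRCh38, GENCODE 29). Its level was 80.7, 80.2 and 80.2 CPM in the DMSO libraries and 90.0, 94.0 and 83.5 CPM in the CEP libraries. With 4SU alone the level was 67.1, 63.7 and 68.4 CPM, and with CEP and 4SU it was 66.9, 71.8 and 71.1 CPM. All 6 libraries with 4SU lay below all 6 without it, and the 2 ranges were separated by a gap from 71.8 to 80.2 CPM. Of all genes tested, 0.863% had their 6 libraries with 4SU all below the 6 without.

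Averaged over the presence of CEP, CCND1 fell by 0.31 on the log2 scale with 4SU (SE 0.0546, 95% interval -0.43 to -0.20, fold 0.805), and this passed at an adjusted p of 0.0151 by edgeR's quasi-likelihood test with Benjamini-Hochberg adjustment over all 17729 genes. By its p it stood at rank 17 among these genes. In this comparison 99 genes passed, 0.558% of those tested, and 0.384% were called lower. The other 8 cyclins did not pass, so 1 of 9 members was called. Each single group against DMSO gave a difference in CCND1 that did not pass after adjustment, with a log2 fold change of -0.28 for 4SU (SE 0.0773, adjusted p = 0.557), -0.20 for CEP+4SU (SE 0.0771, adjusted p = 0.145) and 0.15 for CEP (SE 0.0768, adjusted p = 0.299). These 3 comparisons share the DMSO libraries. The difference in the CEP effect with and without 4SU, the interaction, was -0.07 for CCND1 (SE 0.109, 95% interval -0.30 to 0.15).

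The CCND1 call was near the threshold. Left out one at a time, DMSO replicates 1, 2 and 3 and 4SU replicates 2 and 3 each took the adjusted p over 0.05 (0.0708, 0.0529, 0.0575, 0.0718 and 0.0587), with log2 fold changes between -0.29 and -0.32, and leaving out any of the other 7 kept the call. TMM factors were 0.999 to 1.03 in the libraries with 4SU and 0.972 to 1.00 in those without. On library size alone the CCND1 fold change was -0.27 and still passed (adjusted p = 0.0309, edgeR), as it did without the pair of libraries with few genes detected (-0.30, adjusted p = 0.00704, an alternative chosen after seeing the data). CCND1 counts per library ran from 1080 to 1933. Its gene overlaps LTO1 on the opposite strand, which had 5363 counts over the 12 libraries against 18261 for CCND1, and since the strand setting of the counting was not stated, reads of such a pair cannot be told apart.

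CCND3, the cyclin D3 gene, had DMSO libraries at 84.1, 79.9 and 77.5 CPM and 4SU libraries at 76.8, 66.4 and 73.8 CPM. The CEP libraries stood at 78.3, 69.6 and 66.8 CPM and the CEP+4SU libraries at 72.5, 65.6 and 72.0 CPM. The 3 libraries of 4SU, and those of CEP+4SU, all lay below the 3 of DMSO, while CEP replicate 1 lay within the DMSO range. The log2 fold change against DMSO was -0.20 for CEP+4SU (SE 0.087, adjusted p = 0.192), -0.17 for CEP (SE 0.0871, adjusted p = 0.296) and -0.15 for 4SU (SE 0.0871, adjusted p = 0.792), and none passed. The CEP values of CCND3 moved with GC content: with each library's GC trend removed, the CEP difference averaged over 4SU went from -0.11 to 0.02. The longest coding transcript of CCND3 had 56.2% GC, against a median of 48.8% over the genes tested. GC content here and below is that of a single transcript of each gene and not of all its exons.

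CCND2, the cyclin D2 gene, varied more between replicates than between groups. It read 28.8, 38.7 and 34.8 CPM in DMSO, 28.9, 36.2 and 35.6 in CEP, 26.0, 37.4 and 31.5 in 4SU, and 27.7, 36.7 and 28.7 in CEP+4SU. In each of the 4 groups replicate 2 was the highest library and replicate 1 the lowest. Its differences from DMSO lay between -0.13 and -0.02 on the log2 scale with SE 0.144, and its coefficient of variation over the 12 libraries was 13.6%, the highest of the 9 members. The 95% interval of the 4SU difference averaged over CEP ran from -0.32 to 0.10, which includes both 0 and the CCND1 value.

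Summed over the 3 genes, D-type mRNA stood at 35.0 ± 0.581 FPKM in DMSO and 35.1 ± 1.46 in CEP, and at 30.6 ± 0.74 in 4SU and 30.6 ± 0.549 in CEP+4SU (mean ± SD, n = 3). CCND1 made up 47.2% ± 0.667 of this sum in DMSO, 52.0% ± 1.13 in CEP, 44.9% ± 0.608 in 4SU and 46.9% ± 0.891 in CEP+4SU. The share of CCND1 was above the DMSO range in all 3 CEP libraries (51.2% to 53.3%, against 46.4% to 47.7%). It was below that range in all 3 libraries with 4SU alone (44.2% to 45.3%). This share is built from the D-type levels given above, and no such share was computed for other genes. Of single genes tested, 13.5% had all 3 CEP libraries above DMSO and 10.3% all 3 of 4SU below. The log2 ratio of CCND1 to CCND3, which does not depend on the library size, was 0.26 ± 0.0544 in DMSO, 0.58 ± 0.116 in CEP, 0.14 ± 0.0679 in 4SU and 0.26 ± 0.124 in CEP+4SU. Neither the share nor the ratio was corrected for the GC trend, with which the CEP values of CCND3 moved.

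**Figure D2:**
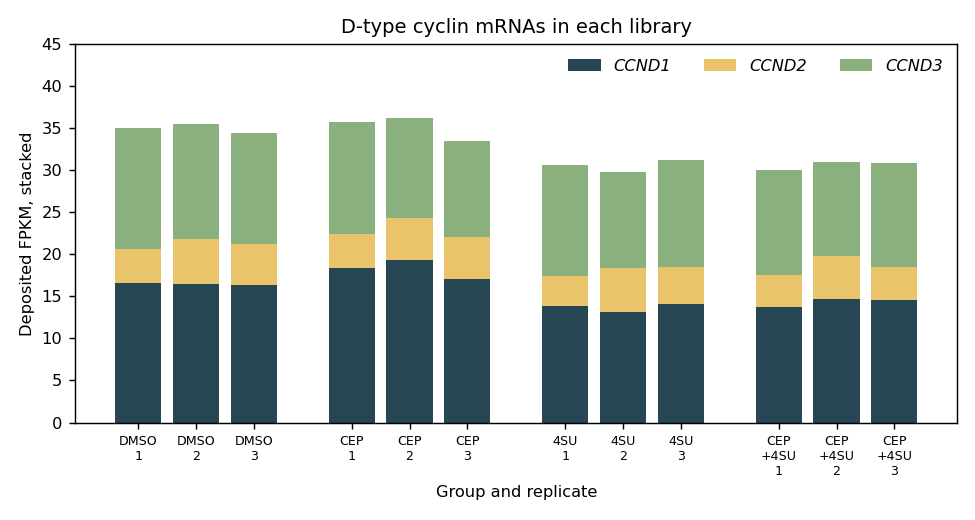
Deposited FPKM of CCND1, CCND2 and CCND3 stacked for each of the 12 libraries, by group and replicate. The summed bars reach 33.4 to 36.2 FPKM in the 6 libraries without 4SU and 29.8 to 31.2 in the 6 with it, and the CCND1 segment is shortest in the libraries with 4SU.

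The E-type genes, whose products activate CDK2 at the start of S phase, showed no called difference. CCNE1 read 41.1, 31.4 and 35.5 CPM in DMSO and 40.5, 33.5 and 37.3 in CEP, against 30.2, 32.0 and 31.3 in 4SU and 30.6, 37.4 and 30.9 in CEP+4SU. The DMSO libraries covered nearly the whole range seen. The CCNE1 difference with 4SU, averaged over CEP, was -0.19 (SE 0.0809, 95% interval -0.36 to -0.02, adjusted p = 0.327), and 4 of 6 libraries with 4SU lay below the lowest without. In the 3 comparisons with DMSO the log2 fold change of CCNE1 was 0.04 for CEP, -0.21 for 4SU and -0.13 for CEP+4SU.

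CCNE2 read 18.5, 19.4 and 17.5 CPM in DMSO and 20.8, 22.1 and 22.1 in CEP. With 4SU it read 19.5, 18.8 and 22.4 CPM, and with both agents 22.3, 24.8 and 20.3. All 3 CEP libraries and all 3 CEP+4SU libraries lay above all 3 DMSO libraries. The log2 fold change was 0.28 for CEP+4SU against DMSO (SE 0.112, 95% interval 0.05 to 0.52, adjusted p = 0.156), 0.23 for CEP against DMSO (SE 0.112, adjusted p = 0.282) and 0.19 for CEP averaged over 4SU (SE 0.0793, adjusted p = 0.155), none of which passed. CCNE2 had the lowest GC content of the members, 36.9%, and with the GC trend removed these differences were 0.08, 0.05 and 0.05. Its counts were also the lowest of the 9, at 319 to 518 per library, and INTS8 and NDUFAF6 overlap it on the opposite strand with 24739 and 5266 counts over the 12 libraries against 4923. CCNE2 made up 23.1% ± 2.92 of E-type FPKM in DMSO, 25.4% ± 2.38 in CEP, 27.4% ± 1.93 in 4SU and 28.4% ± 1.17 in CEP+4SU (SD, n = 3).

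CCNA2, whose product acts from S phase to early mitosis, read 211, 180 and 188 CPM in DMSO and 202, 212 and 201 in CEP. The 4SU libraries read 185, 187 and 190 CPM and the CEP+4SU libraries 186, 209 and 191. The ranges of every treated group overlapped that of DMSO, whose replicate 1 was high. Its log2 fold changes were small, at 0.09 for CEP (SE 0.0749), -0.04 for 4SU (SE 0.075) and 0.02 for CEP+4SU (SE 0.0749) against DMSO, with adjusted p-values of 0.538, 0.936 and 0.917. The 95% interval of the 4SU difference averaged over CEP was -0.17 to 0.06, which leaves out a fall of the size seen in CCND1. CCNA2 overlaps EXOSC9 on the opposite strand, with 21338 counts over the 12 libraries against 46557.

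CCNB1, the partner of CDK1 at entry into mitosis, read 260, 247 and 264 CPM in DMSO and 264, 288 and 270 in CEP. With 4SU the values were 227, 252 and 226 CPM, and with both agents 242, 244 and 254. The CEP libraries all lay above the DMSO libraries, though the closest of them were 264.0 and 263.7 CPM. The log2 difference with 4SU averaged over CEP was -0.14 (SE 0.0494, 95% interval -0.24 to -0.04) and did not pass, with an adjusted p of 0.221. With each library's GC trend removed it was -0.16 and passed, with an adjusted p of 0.0268 by edgeR, the kind of alternative in which a cyclin other than CCND1 was called. The GC content of CCNB1 was 43.2%. Against DMSO its log2 fold changes were 0.09 for CEP (SE 0.0698), -0.13 for 4SU (SE 0.0699) and -0.06 for CEP+4SU (SE 0.0698), none of which passed. The CEP value of CCNB1 was 0.011 with the GC trend removed and 0.20 with the length trend removed.

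CCNB2 encodes the B-type cyclin of the Golgi region and read 88.4, 75.3 and 83.1 CPM in DMSO, 87.7, 94.8 and 85.0 in CEP, 73.4, 78.0 and 86.7 in 4SU, and 79.1, 78.0 and 85.8 in CEP+4SU. All treated ranges overlapped that of DMSO. Its differences from DMSO were 0.12 for CEP (SE 0.0876), -0.05 for 4SU (SE 0.0878) and -0.02 for CEP+4SU (SE 0.0877), with adjusted p-values of 0.477, 0.934 and 0.908. Summed FPKM of CCNA2, CCNB1 and CCNB2 was 197 ± 10.6 in DMSO, 210 ± 8.93 in CEP, 187 ± 5.95 in 4SU and 193 ± 4.56 in CEP+4SU (SD, n = 3). CCNB1 made up 49.1% to 50.6% of this sum in the 4 groups on average.

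CCNF, which encodes the F-box protein cyclin F, read 98.4, 99.0 and 103 CPM in DMSO and 102, 99.5 and 85.9 in CEP. It read 95.7, 90.3 and 96.9 CPM in 4SU and 94.1, 77.6 and 94.7 in CEP+4SU. All libraries with 4SU lay below the DMSO libraries, and CEP+4SU replicate 2, one of the pair with few genes detected, was the lowest of all 12. The log2 fold change was -0.18 for CEP+4SU (SE 0.0898, adjusted p = 0.264), -0.09 for 4SU (SE 0.0898, adjusted p = 0.887) and -0.07 for CEP (SE 0.0898, adjusted p = 0.722). Without CEP replicate 3 the CEP value was 0.01, and with the GC trend removed it was 0.11. CCNF had the highest GC content of the members, 57.6%.

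**Figure D3:**
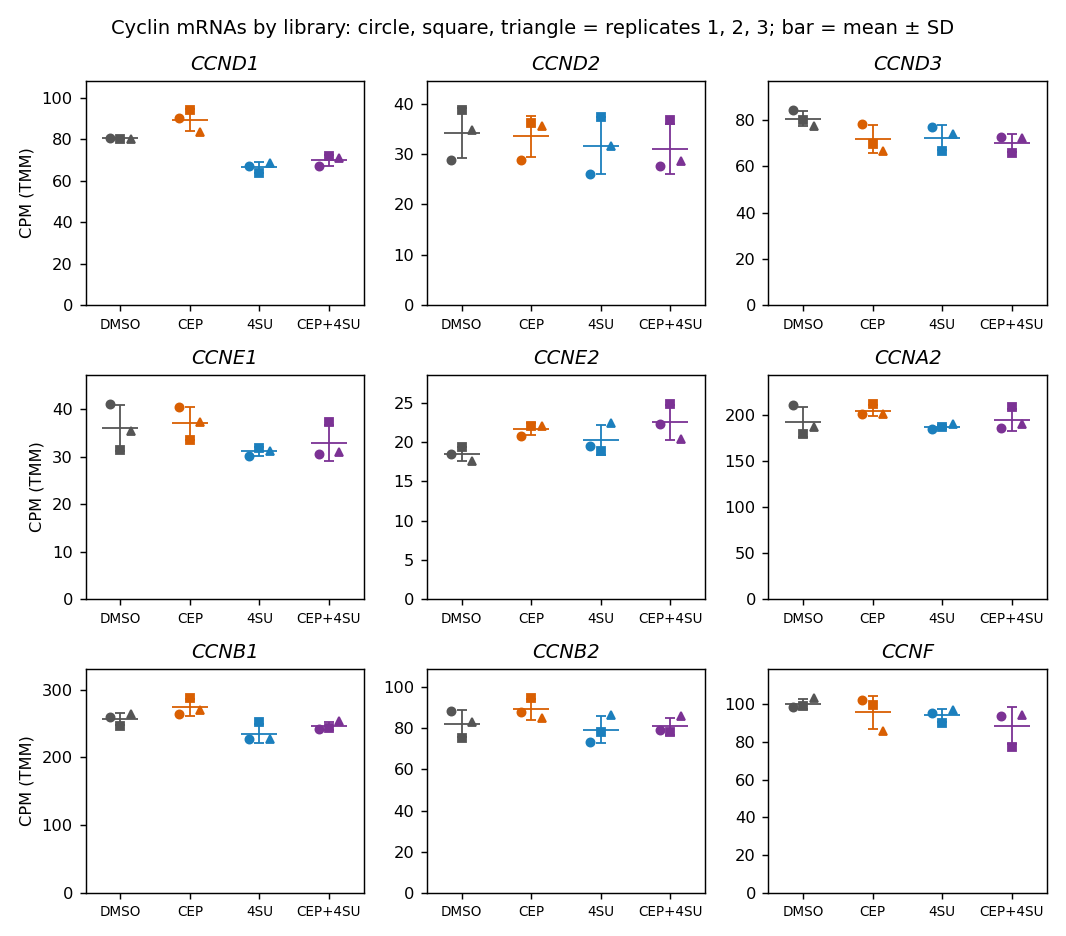
CPM on TMM library sizes of each cyclin in every library, in 4 groups of 3 (circle, square and triangle for replicates 1, 2 and 3), with the group mean and SD and axes that start at 0. In CCND1 the 6 libraries with 4SU (63.7 to 71.8 CPM) lie below the 6 without (80.2 to 94.0), and in the other 8 genes the 2 sets overlap.

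Over all comparisons 1 of 9 cyclins was called. In CEP against DMSO 0 of 9 cyclins were called, where 0.0564% of the genes tested were, and 0 of 9 had an unadjusted p under 0.05, where 18.6% of the genes had. Their median log2 fold change was 0.09, with 6 values above 0, and their median absolute change was 0.0921 against 0.185 over all genes. In 4SU against DMSO 0 of 9 were called (background 0.00564%), 1 had an unadjusted p under 0.05 (background 6.5%), and 8 of 9 values were below 0 with a median of -0.11. Their median absolute change there was 0.128, against 0.124 over all genes. In CEP+4SU against DMSO 0 of 9 were called, where 290 of all genes were (1.64%), and 3 cyclins (CCND1, CCND3 and CCNE2) had an unadjusted p under 0.05 where 21.4% of genes had. DESeq2 called no cyclin in these 3 comparisons either, but in 4SU against DMSO it gave an adjusted p for 6 of 9 and none for CCND2, CCNE1 and CCNE2. The backgrounds themselves depend on single libraries: with 1 library left out, calls over all genes ran from 4 to 1214 for CEP, where 10 were called with all libraries, and from 14 to 812 for CEP+4SU. The most came without CEP replicate 1 and without CEP+4SU replicate 1.

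For CEP averaged over 4SU 0 of 9 cyclins were called (background 0.276%, or 49 genes, and 21 to 2171 with 1 library left out), and 1, CCNE2, had an unadjusted p under 0.05 (background 24.3%). For 4SU averaged over CEP, in which CCND1 was called, CCNB1 and CCNE1 also had an unadjusted p under 0.05 (3 of 9, background 12.6%). Of the 9 values 8 were below 0, with a median of -0.10 against -0.0019 over all genes, and the median absolute change of the cyclins, 0.0998, was near that over all genes, 0.105. The interaction called no gene (0 of 17729, with 467, or 2.63%, at an unadjusted p under 0.05), and no cyclin had an unadjusted p under 0.05, with values from -0.09 in CCNB2 to 0.12 in CCND3.

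**Figure D4:**
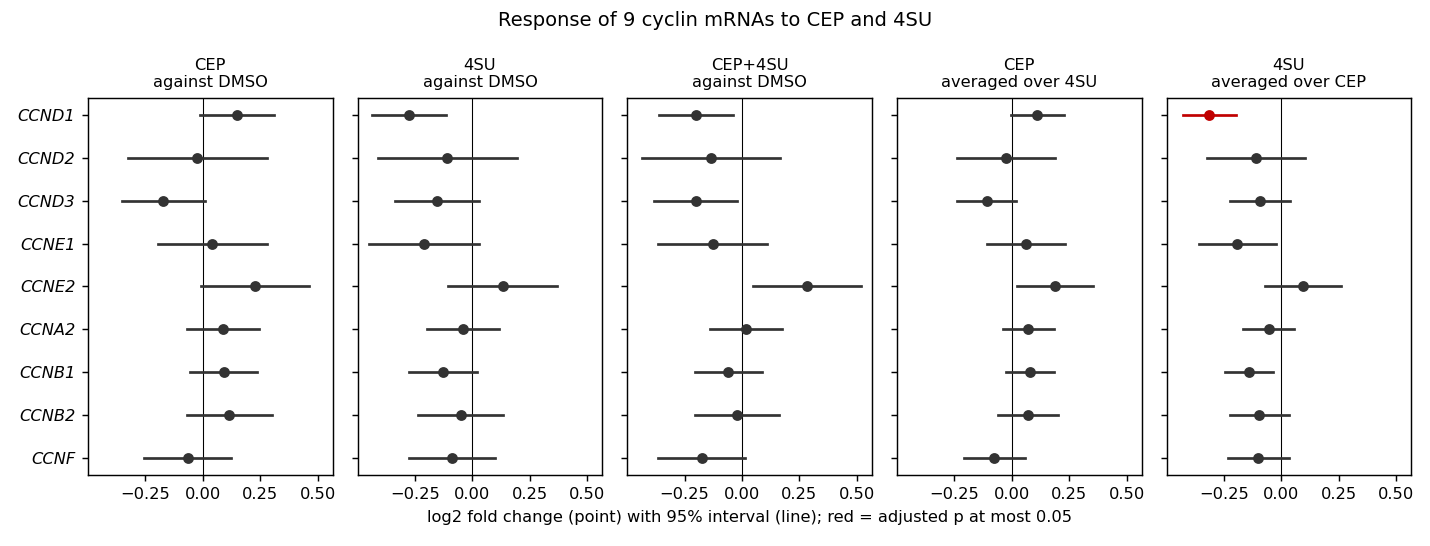
Log2 fold change (point) and 95% interval (line) of each cyclin in 5 comparisons, with calls at an adjusted p of at most 0.05 in red. The red point is CCND1 for 4SU averaged over CEP, at -0.31, and the other 44 intervals belong to differences that did not pass.

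Counts of cyclins whose groups did not overlap were read against all genes in the same way. The 3 CEP libraries all lay above the 3 DMSO libraries for 3 cyclins, CCNB1, CCND1 and CCNE2, as for 13.5% of genes. The 3 libraries of 4SU lay below DMSO for CCND1, CCND3 and CCNF, as for 10.3% of genes, and the 3 of CEP+4SU lay below it for the same 3 cyclins, as for 14.6% of genes. CCNE2 was the one cyclin with all CEP+4SU libraries above DMSO, as for 14.1% of genes. The treated groups share their DMSO libraries, so the repeat of CCND1, CCND3 and CCNF in both sets is not a second observation.

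Levels of some cyclins followed each other over the 12 libraries. The closest pairs by Pearson's r of log2 CPM were CCNB1 and CCND1 (0.799), CCND3 and CCNF (0.752), CCNA2 and CCNE1 (0.734), CCNA2 and CCNB2 (0.672) and CCNB1 and CCNB2 (0.667). CCNE2 ran against CCNF (-0.63) and CCND3 (-0.60). All of these points share library, depth and treatment group, and CCND3 and CCNF are the members richest in GC while CCNE2 is the poorest. The genes of any kind most like CCND1, among 11740 with a mean of at least 5 CPM, were MCCC2 (0.976), AMOT (0.972) and HADHA (0.962). For CCNB1 they were IARS and VCL (0.925 each), for CCNA2 CNOT10 (0.925), for CCNB2 SLC25A13 (0.906), for CCND3 GALNT2 (0.955), for CCNF BCR (0.955), for CCNE1 ATP5F1C (0.914), for CCNE2 MOSMO (0.903) and for CCND2 RC3H1 (0.855), and no other cyclin was among the 3 most alike of any member.

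The members differ in base composition, which was taken from a single transcript of each gene. The nucleoside 4SU is built by cells into new RNA in place of uridine. Uridine made up 31.4% of CCNE2, 29.5% of CCND2, 28.3% to 28.6% of CCNB2, CCNA2 and CCNB1, 25.4% of CCND1, 23.4% of CCND3, 23.3% of CCNE1 and 20.9% of CCNF, against a median of 24.8% over the genes tested. CCND1, the called gene, was thus near the median in uridine and, at 50.3%, in GC. The member richest in uridine, CCNE2, was the one whose difference with 4SU was above 0 (0.09, SE 0.0793). The part of base composition in these differences was not tested beyond the GC trend.

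The kinases that cyclins bind showed no called difference. Of 8 CDK partners and CKS subunits, all tested, 0 passed in any of the 6 comparisons. CDK1, the mitotic kinase, averaged 161 ± 1.56 CPM in DMSO, 175 ± 27.1 in CEP, 169 ± 21.0 in 4SU and 176 ± 14.1 in CEP+4SU (SD, n = 3). CDK2, the partner of E- and A-type cyclins, stayed between group means of 126 and 133 CPM. CDK4, a partner of D-type cyclins, had means of 154 ± 7.22 CPM in DMSO and 127 ± 19.3 in CEP+4SU (log2 fold change -0.29, adjusted p = 0.125). CDK6, the other D-type partner, had means of 154 ± 8.54 CPM in DMSO and 189 ± 26.7 in CEP, and its CEP difference averaged over 4SU was 0.25 (SE 0.0653, adjusted p = 0.0661, edgeR). None of the 7 CDK inhibitors passed in any comparison, among them CDKN1A (p21), at 54.1 ± 2.56 CPM in DMSO and 54.2 ± 7.37 in CEP, and CDKN1B (p27), at 31.8 ± 2.09 and 31.4 ± 2.79. Of the 16 kinases, phosphatases and ubiquitin ligases that act on cyclin-CDK complexes, 0 passed.

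Of 20 pocket proteins, E2F and MuvB factors, 1 was called, in CEP+4SU against DMSO, where 1.64% of all genes tested were. E2F7, a repressor of E2F targets, rose from 38.1 ± 2.29 to 51.4 ± 3.71 CPM there (log2 fold change 0.43, SE 0.0947, adjusted p = 0.0339). Its values for the single agents were 0.40 for CEP (SE 0.0949, adjusted p = 0.173) and 0.28 for 4SU (SE 0.0952, adjusted p = 0.669), and its interaction was not called. RB1, the substrate of cyclin D kinases, stood at 96.2 ± 2.07 CPM in DMSO and 119 ± 13.4 in CEP+4SU (0.31, adjusted p = 0.0766), and E2F1, which drives E-type cyclin transcription, at 103 ± 1.52 and 99.9 ± 13.6. Among 20 other cyclins with enough counts to test, CCNG1, a p53 target that takes no part in the classical cycle, rose in CEP+4SU against DMSO from 238 ± 10.3 to 309 ± 34.8 CPM (0.38, SE 0.0943, adjusted p = 0.0492), with 0.30 for CEP and 0.19 for 4SU alone, which did not pass. No other of these cyclins was called in any comparison. The calls of E2F7 and CCNG1, and those of EXO1, RAD51AP1 and NDC80 in the same comparison, were each lost without any 1 of DMSO replicates 1, 2 and 3 and CEP+4SU replicates 2 and 3 (adjusted p up to 0.143 for E2F7 and 0.235 for CCNG1), and held without CEP+4SU replicate 1.

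Markers of S phase and of G2 and M phase gave few calls. Over all genes tested, 1.64% were called in CEP+4SU against DMSO and 0.0564% in CEP against DMSO. Of 41 S phase markers tested, EXO1, a DNA exonuclease, and RAD51AP1, a recombination factor, rose in CEP+4SU against DMSO (0.29 and 0.38, adjusted p = 0.0472 and 0.0367). Their values for the single agents, which did not pass, were 0.23 for CEP and 0.26 for 4SU in EXO1 (SE 0.0706 each) and 0.15 and 0.24 in RAD51AP1 (SE 0.0881 and 0.088). The S phase list had a median of 0.13 in CEP against DMSO, with 32 of 41 values above 0, where the median over all genes was -0.0047. Of 53 G2 and M phase markers the kinetochore gene NDC80 rose in CEP+4SU against DMSO (0.40, SE 0.0988, adjusted p = 0.0492), with 0.30 for CEP and 0.29 for 4SU alone, which did not pass. In the same list TUBB4B, a tubulin gene, fell by 0.83 on the log2 scale in CEP against DMSO, from 664 ± 44.2 to 372 ± 79.1 CPM (adjusted p = 0.00147), and by 0.92 in CEP+4SU. The list's median was 0.12 in CEP against DMSO, with 37 of 53 above 0. How the list medians move with GC content was not examined. For CEP averaged over 4SU, 18 of 41 S phase and 23 of 53 G2 and M phase markers had an unadjusted p under 0.05 (edgeR, background 24.3%). For 4SU averaged over CEP, the comparison in which CCND1 fell, none of the S phase or G2 and M phase markers passed, and the list medians were 0.04 and 0.0055. An unadjusted p under 0.05 was found there in 12 of 41 and 5 of 53 markers (edgeR, background 12.6%).

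Some genes of growth factor signalling that lie upstream of D-type cyclins were called with CEP and none with 4SU, and the difference between these responses was not tested. Of 16 tested, FOS, part of the AP-1 factor that acts on the CCND1 promoter, rose from 4.23 ± 0.508 to 12.3 ± 1.89 CPM in CEP against DMSO (1.53 on the log2 scale, SE 0.194, adjusted p = 0.00147). DUSP5, a phosphatase of ERK kinases, rose from 3.92 ± 0.401 to 9.94 ± 1.91 CPM (1.34, SE 0.174, adjusted p = 0.00147). JUN, the partner of FOS, fell by 0.48 for CEP averaged over 4SU (adjusted p = 0.00759), and EGR1, an immediate early factor, rose by 0.81 there (adjusted p = 0.0496). The EGR1 call was lost in all fits with 1 library left out (adjusted p up to 0.211) but the 3 without CEP replicate 1, CEP+4SU replicate 1 or CEP+4SU replicate 2, and that of JUN held in 12 of 12. With CCN1, a secreted matrix protein also known as CYR61 (0.65, adjusted p = 0.0027), 4 of the 16 were called higher in that comparison and 1 lower. CCND1 itself did not pass with CEP, at 0.11 averaged over 4SU (95% interval -0.0026 to 0.23, adjusted p = 0.216). With 4SU 0 of the 16 passed, among them the WNT pathway genes CTNNB1 (-0.014), AXIN2 (-0.11) and LEF1 (0.0072), whose pathway also feeds the CCND1 promoter. The median of the 16 for 4SU averaged over CEP was -0.083, with 5 values above 0, where the median over all genes was -0.0019.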

How the data were processed

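Gene counts and FPKM values were deposited for 12 poly(A) libraries of HEK293T cells. The counts were made by the authors, who removed low-quality reads, aligned the rest to GRCh38 with HISAT2 2.0.5 and counted them on genes with featureCounts 1.5.0-p3, and they are whole numbers without normalization. The strand setting was not given in the sources used here. The FPKM values were also made by the authors, as fragments scaled to gene length and library size. A table of group means was not used. Group and replicate came from the sample labels.

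Genes were filtered with filterByExpr (minimum count 10, minimum total 15) and normalized with TMM. The 4 groups were fitted in 1 quasi-likelihood model (edgeR 4.0.16, R 4.3.3) over 17729 genes, with Benjamini-Hochberg adjustment at 0.05. Each standard error was the absolute log2 fold change divided by the square root of the quasi-likelihood F statistic. The procedure was run on simulated counts with the same spread for all genes and planted changes larger than any cyclin difference. It therefore does not bear on changes of the size seen in CCND1. Alternatives were DESeq2 1.42.0, limma 3.58.1 on log2(FPKM + 1) and log2(FPKM + 0.1), other scalings and filters, a robust fit, GC and length trends removed by splines, a replicate block and leaving out each library. Correlations used log2 CPM with a prior count of 2.

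The cyclin genes, the gene lists and the rules were chosen with earlier results of these data known, so no list is independent evidence. All 9 cyclins, CDK1, CDK2, CDK4 and CDK6, further listed genes that passed, and the 3 genes most like each cyclin by Pearson's r were eligible to be named, and some other listed genes were named after their values were seen. Of 208 list genes 205 were found by symbol and 3 by an older one (CCNP, CCN1 and CCN2). Replicates of a group differed beyond counting noise in 12 of 12 pairs (chi-square per gene 4.04 to 17.9). Promoters are RefSeq windows of GRCh38.p14. Depth limits precision through the counts given beside each gene.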

Additional observations from a re-analysis of the deposited data

How the results depend on the processing

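The CCND1 fall with 4SU averaged over CEP passed in all 13 alternatives other than leaving out single libraries (log2 fold change -0.34 to -0.27, adjusted p 4.15e-05 to 0.0309). With single libraries left out the number of cyclins called there was 0 to 1, and CCND1 itself ranged from -0.34 to -0.29. With the GC trend removed, 2 cyclins were called in that comparison, CCND1 and CCNB1. The other 5 comparisons called 0 cyclins under every alternative run, though DESeq2 gave no adjusted p for 3 of the 9 in 4SU against DMSO. The cause of the changes below was not tested.

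Directions turned only for differences that had not passed. With the GC trend removed, CCNA2 read -0.013 for CEP, -0.092 for CEP+4SU and -0.0083 for CEP averaged over 4SU, CCNF read 0.11 for CEP and 0.068 averaged, and CCND3 read 0.016 averaged. On library size alone, 4SU against DMSO read 0.015 in CCNA2 and 0.0050 in CCNB2, and CEP+4SU read 0.010 in CCNB2. With the length trend removed, CEP+4SU read 0.0062 in CCNB1 and 0.036 in CCNB2. Without CEP replicate 2 and CEP+4SU replicate 2, a choice made after seeing the data, it read -0.031 in CCNA2 and 0.0052 in CCNB2.

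With single libraries left out, the difference from DMSO ranged from -0.13 to 0.086 in CCND2, -0.039 to 0.15 in CCNE1 and -0.10 to 0.0082 in CCNF for CEP. For 4SU it ranged from -0.079 to 0.030 in CCNA2, -0.11 to 0.0086 in CCNB2 and -0.23 to 0.021 in CCND2. For CEP+4SU the range was -0.031 to 0.085 in CCNA2 and -0.079 to 0.030 in CCNB2, and for CEP averaged over 4SU it was -0.099 to 0.028 in CCND2.

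Deviations of same-numbered libraries correlated at -0.0469 to 0.141, over 0.1 in 1 of 18 pairs. These values do not settle whether the replicate numbers pair the libraries, since the replicate block raised the calls over all genes, as given below. With the GC trend removed, calls without and with the block were 15 and 20 for CEP against DMSO and 163 and 202 for CEP+4SU against DMSO. They were 70 and 77 for CEP averaged over 4SU. With the replicate block alone CCND1 was called again (-0.31, adjusted p = 0.0049) and no other cyclin was. With the replicate block and the GC trend removed, a pairing of choices made after seeing the data, 2 cyclins were called for 4SU averaged over CEP, CCND1 and CCNB1 (adjusted p = 0.0342). In that fit CCNA2 read -0.010 for CEP, -0.089 for CEP+4SU and -0.0068 for CEP averaged, CCNF read 0.11 and 0.068, and CCND3 read 0.016. Over all genes, calls for 4SU averaged over CEP numbered 99, and 336 with the block, 336 with DESeq2, 931 with the GC trend removed, 926 with both, 217 with the length trend removed, 311 without a filter, 222 without the pair of libraries with few genes, 29 and 26 with limma on FPKM, and 6 to 125 with single libraries left out. For CEP against DMSO they numbered 10, and 780 with the block, 253 with DESeq2, 662 without a filter and 4 to 1214 with single libraries left out. For 4SU against DMSO 1 gene was called, and 8 with the block, 21 with DESeq2, 41 without a filter, 94 on the 6 libraries compared, 18 with the GC trend removed, 25 without the pair with few genes and 0 with any single library left out. For CEP+4SU against DMSO they numbered 290, and 1667 with the block, 1164 with DESeq2, 1234 without a filter, 163 with the GC trend removed, 567 on the 6 libraries compared, 156 without the pair with few genes, 21 and 24 with limma and 14 to 812 with single libraries left out. For CEP averaged over 4SU they numbered 49, and 2269, 1499 and 1448 in the first 3 of these, 146 in the robust fit, 150 with the length trend removed, 19 with either limma fit and 21 to 2171 with single libraries left out.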
